A study of Mus musculus with 2 samples.

Results

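The genes described here encode 9 tight junction proteins of brain endothelium, the claudins Cldn5, Cldn12 and Cldn1, occludin (Ocln), the immunoglobulin-like adhesion molecules Esam, Jam2, F11r and Jam3, and the scaffold Tjp1. They were chosen by name, and every probe set annotated to exactly 1 of them was taken, which gave 20 probe sets. They were 9 of 18194 genes that at least 1 probe set measured singly. By the labels, transcripts were measured in bEnd3 cells, a BALB/c mouse line from microvessels of the cerebral cortex that is transformed by the polyoma middle T antigen, and that is thus 1 line and not a set of animals. The cells were infected with retrovirus from PLAT-E packaging cells that carried a Smad4-siRNA or a control-siRNA, and both groups went through puromycin selection. RNA of 2 infections was pooled for each group and put on 1 Affymetrix array. With 1 array a group, no test between the groups was possible, no difference has a replicate check, and precision is limited by this number.

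Tight junctions seal the cleft between neighbouring endothelial cells of brain vessels and are one basis of the blood-brain barrier. Claudins and occludin cross the membrane several times, and claudins of adjacent cells pair to form the sealing strands. Junctional adhesion molecules and Esam cross the membrane once and hold cells together through immunoglobulin-like domains, and cytoplasmic scaffolds such as the Tjp1 product (zonula occludens protein) tie the membrane proteins to actin. Cldn5 is the claudin best known for brain endothelium, where its loss opens the barrier of mice to small molecules.

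The array labelled Smad4-siRNA did not show the lower Smad4 transcript that its label implies, and it differed from the Control-siRNA array in far more than the genes described here. The 3 probe sets of Smad4 had log2 ratios (Smad4-siRNA-labelled minus Control-siRNA array) of 0.25, 0.35 and 0.58 after quantile normalization and of -0.12, -0.07 and 0.21 as deposited, so no probe set was lower by as much as the spread between probe sets given below. Xist, which is expressed from an inactive X chromosome, had a signal of 4476 in its brightest probe set on the Smad4-siRNA-labelled array, against 20.7 on the Control-siRNA array. The Y-linked gene Eif2s3y had a signal of 0.349 on the Smad4-siRNA-labelled array, against 324 on the Control-siRNA array. Whether both arrays hold RNA of the same bEnd3 culture cannot be told from the labels, and this bears on every ratio between them. Of 15 endothelial markers that are not among the 9 genes, 7 reached the floor on the Smad4-siRNA-labelled array, against 14 on the Control-siRNA array. The floor is the median signal of an array, 22.8 after normalization, and stands in for detection calls. Of all 18194 genes, 10572 reached it on the Smad4-siRNA-labelled array and 10488 on the Control-siRNA array. Summed over those 15 markers, signals below the floor included, the total was 1048 on the Smad4-siRNA-labelled array, against 20296 on the Control-siRNA array. Among them Eng alone had 508 on the Smad4-siRNA-labelled array, against 748 on the Control-siRNA array, and lay within 2-fold (log2 ratio -0.56). Of 11 fibroblast markers, 9 reached the floor on the Smad4-siRNA-labelled array, against 1 on the Control-siRNA array, with summed signals of 24268 and 160 on these arrays. These sums, too, include signals below the floor. "Higher" and "lower" are meant as the side on which the array labelled Smad4-siRNA lay, not as a response to a loss of Smad4. In bulk RNA, fewer cells of a type and less RNA per cell cannot be told apart.

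Of the 9 genes, 4 were at least 2-fold lower on the Smad4-siRNA-labelled array (Cldn5, Esam, Jam2 and F11r), 0 were at least 2-fold higher and the other 5 were under 2-fold. Of these 5, Cldn12, Ocln, Tjp1 and Jam3 were measured on both arrays and Cldn1 had a bound under 2-fold, so that its difference may be larger. All 9 reached the floor on at least 1 array, and so did 11581 of the genes in all. Among these 11581 genes 15.8% were at least 2-fold lower and 16.0% at least 2-fold higher, so the lower calls made up a larger share of the 9 genes (44.4%) than of all genes. The median log2 ratio was -0.89 over the 9 genes and -0.11 over all genes measured. These genes were picked by name with earlier results of these arrays known, and the shares describe the arrays only. A gene is represented by its brightest probe set, and a signal below the floor was raised to it before a ratio was taken, so that a ratio with 1 such side is a bound. As a technical error the pooled SD of log2 ratios between probe sets of the same gene was taken, 0.47 in 4546 genes, which holds no error between arrays or cultures.

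**Figure D1:**
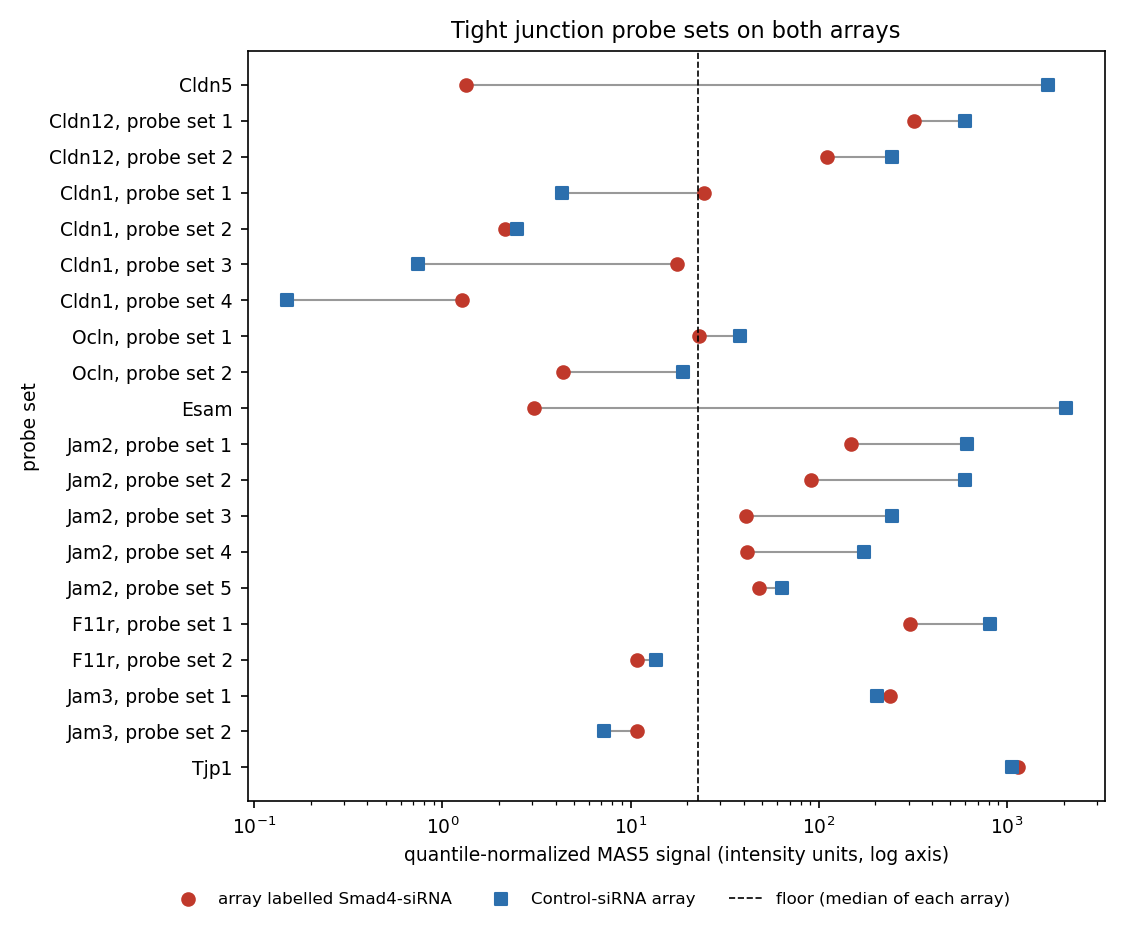
Quantile-normalized signal (log axis, intensity units) of the 20 probe sets of the 9 genes, with circles for the Smad4-siRNA-labelled array, squares for the Control-siRNA array and a dashed line at the floor of 22.8. Cldn5 and Esam lie below the floor on the Smad4-siRNA-labelled array and above 1600 on the Control-siRNA array, whereas the symbols of Tjp1 nearly coincide.

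Among these genes Cldn5 was the only claudin called at 2-fold in the setting used here. The single Cldn5 probe set had a signal of 1.33 on the Smad4-siRNA-labelled array, against 1646 on the Control-siRNA array. The first value is below the floor, so Cldn5 was at least 72.2-fold lower (log2 ratio of at most -6.17). As deposited the values were 1.37 on the Smad4-siRNA-labelled array, against 1863 on the Control-siRNA array. The transcript was thus measured on the Control-siRNA array alone.

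Cldn12, a claudin of brain endothelium and many other tissues, was lower by a far smaller step. Its brightest probe set had a signal of 322 on the Smad4-siRNA-labelled array, against 596 on the Control-siRNA array (log2 ratio -0.89), and its other probe set 111, against 246 on the Control-siRNA array (-1.15). Both probe sets were measured on both arrays and had the same sign, with a mean of -1.02 ± 0.18 (SD, n = 2 probe sets of the same RNA). The 2-fold threshold runs between them, so the call for Cldn12 depended on the probe set and on the scaling. It was within 2-fold in the setting used here and at least 2-fold lower as deposited (-1.23), after centring on the median (-1.10), for the median over probe sets (-1.02) and without probe sets with suffixes for shared sequence (-1.15).

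Cldn1, the main claudin of epidermis and many epithelia, was close to or below the floor throughout. Its brightest probe set had a signal of 24.7 on the Smad4-siRNA-labelled array, against 4.35 on the Control-siRNA array, so it was higher by at least 1.08-fold. The other 3 probe sets were below the floor on both arrays. The 25th percentile of each array, taken as the floor, moved the log2 ratio of Cldn1 to 2.14 and the same percentile added as a pseudocount to 1.60, past 2-fold in both cases. Only the Smad4-siRNA-labelled side reached the floor, so in each setting with a floor the ratio of Cldn1 could not be negative. Its upward direction in those settings was fixed in advance and is no support for a difference. With the pseudocount the sign was free, but the ratio rests on signals close to or below the floor.

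Occludin, which like the claudins spans the membrane several times and lies in the strands, was near the floor. Ocln had a signal of 23.2 on the Smad4-siRNA-labelled array, against 38.2 on the Control-siRNA array (log2 ratio -0.72). Its second probe set was below the floor on both arrays, at 4.40 on the Smad4-siRNA-labelled array and 19.0 on the Control-siRNA array. With a floor at the 75th percentile Ocln gave no value.

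Among the adhesion molecules with immunoglobulin-like domains, 3 of 4 were at least 2-fold lower, against 15.8% of all genes measured. Esam, an adhesion molecule of endothelial junctions and platelets, had a signal of 3.06 in its single probe set on the Smad4-siRNA-labelled array, against 2054 on the Control-siRNA array. It was at least 90.2-fold lower (log2 ratio of at most -6.49), and like Cldn5 it was measured on the Control-siRNA array alone. Of the 10488 genes with a Control-siRNA signal at the floor or higher, 9.62% did not reach the floor on the Smad4-siRNA-labelled array, and among the 9 genes these were Cldn5 and Esam, out of 8.

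Jam2 (JAM-B), an adhesion molecule of endothelium that binds Jam3 on other cells, was the most widely sampled of the genes, with 5 probe sets that all reached the floor on both arrays. The signals of these probe sets ran over 149, 91.5, 41.0, 41.8 and 48.4 on the Smad4-siRNA-labelled array, against 613, 597, 246, 175 and 64.0 on the Control-siRNA array in the same order. Every probe set was lower on the Smad4-siRNA-labelled array, 4 of them at least 2-fold. The log2 ratios were -2.04, -2.71, -2.58, -2.06 and -0.40, and the brightest gave a 4.12-fold lower level. Their SD was 0.92, wider than the pooled 0.47, because the dimmest on the Control-siRNA array, with a ratio of -0.40, lay apart from the others. Of the 9479 genes measured on both arrays, 2.67% had a log2 ratio as low as that of Jam2 or lower.

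F11r (JAM-A), found in the junctions of endothelia and epithelia and on leukocytes and platelets, was lower too. It had a signal of 305 on the Smad4-siRNA-labelled array, against 811 on the Control-siRNA array, and was 2.66-fold lower (log2 ratio -1.41). Its second probe set was below the floor on both arrays and gave no check. A share of 7.26% of the genes measured on both arrays had a ratio as low or lower.

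Jam3 (JAM-C), a partner of Jam2, differed by less than the spread between probe sets. Its signal was 238 on the Smad4-siRNA-labelled array, against 205 on the Control-siRNA array. The log2 ratio of 0.21 turned to -0.03 for the values as deposited. Its second probe set was below the floor on both arrays. On the same arrays its partner Jam2 had a log2 ratio of -2.04.

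The scaffold gene showed no difference beyond the spread between probe sets. Tjp1, whose protein binds the cytoplasmic tails of claudins, occludin and junctional adhesion molecules, had a signal of 1146 on the Smad4-siRNA-labelled array, against 1070 on the Control-siRNA array. The log2 ratio of 0.10 turned to -0.31 as deposited and to -0.18 after centring, and all 3 values were under the SD of 0.47 between probe sets in size. The single Tjp1 probe set has a suffix for transcripts that share sequence, so Tjp1 had no value when such probe sets were left out.

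**Figure D2:**
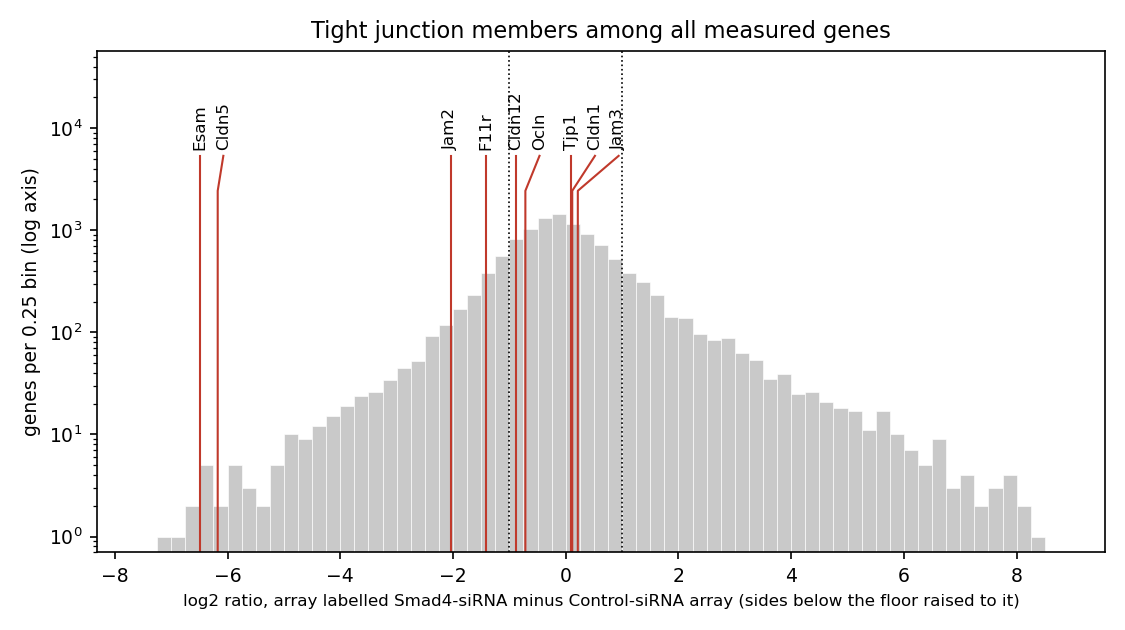
Number of genes (log axis) per bin of the log2 ratio, Smad4-siRNA-labelled minus Control-siRNA array, over 11581 genes that reached the floor on at least 1 array, with red lines at the 9 genes and dotted lines at 2-fold. Esam (-6.49) and Cldn5 (-6.17), both bounds, lie in the lower tail, while Tjp1 (0.10), Cldn1 (0.12, a bound) and Jam3 (0.21) lie near the centre.

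**Figure D3:**
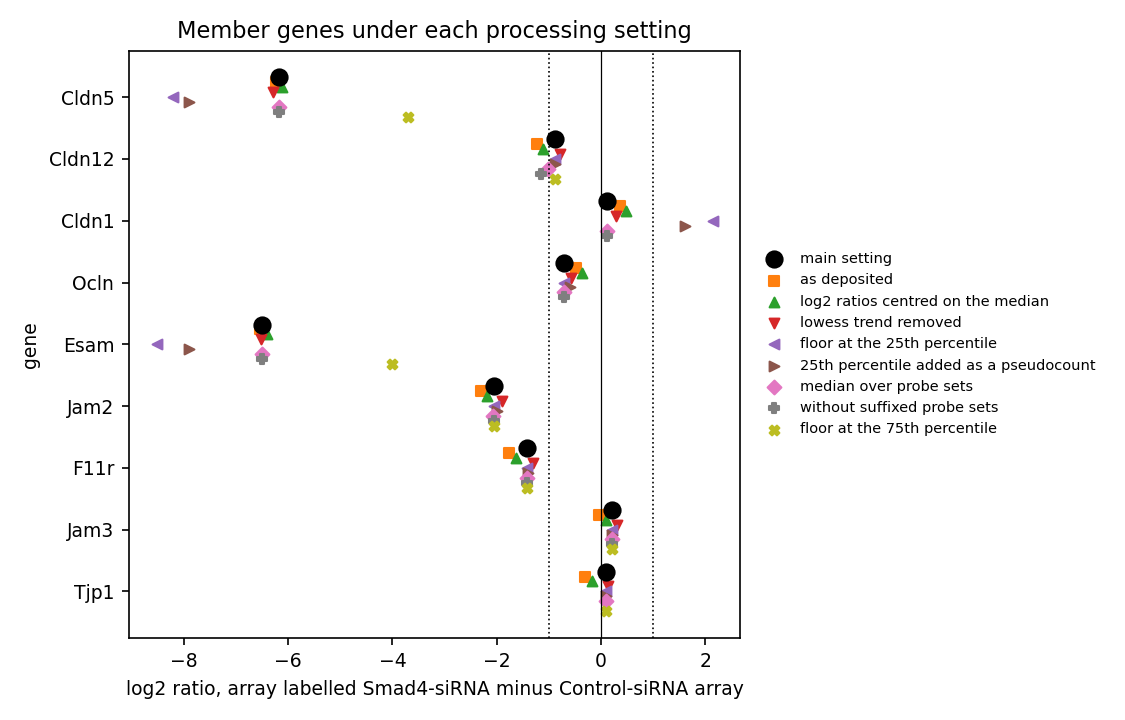
Log2 ratio of each of the 9 genes (Smad4-siRNA-labelled minus Control-siRNA array) in the setting used here (black circles) and in 8 alternatives, with dotted lines at 2-fold. Cldn5, Esam, Jam2 and F11r stay left of the lower line in each setting shown, Cldn12 lies on both sides of it, and Cldn1 passes the upper line in 2 alternatives. In settings with a floor the ratios of Cldn5 and Esam could not be positive.

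Sequence just before the start of the gene is shown for Cldn5 and F11r, which were lower, and for Tjp1, which was not, since the factors measured on these arrays bind near genes through short motifs. Each run is the 250 bases before the annotated start in RefSeq (GRCm38.p6), 5′ to 3′ on the strand of the gene, and capitals mark GGAA or its complement TTCC, the core that ETS factors such as Erg recognise. RefSeq windows were matched for 6 of the 9 genes and not for Esam, Jam2 and Jam3.
Cldn5, chr16:18776597-18776846, plus strand: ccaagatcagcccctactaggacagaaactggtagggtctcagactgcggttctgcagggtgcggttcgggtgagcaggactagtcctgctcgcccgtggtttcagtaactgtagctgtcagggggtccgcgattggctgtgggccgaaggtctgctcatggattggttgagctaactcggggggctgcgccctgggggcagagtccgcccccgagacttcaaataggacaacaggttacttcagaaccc
F11r, chr1:171437311-171437560, plus strand: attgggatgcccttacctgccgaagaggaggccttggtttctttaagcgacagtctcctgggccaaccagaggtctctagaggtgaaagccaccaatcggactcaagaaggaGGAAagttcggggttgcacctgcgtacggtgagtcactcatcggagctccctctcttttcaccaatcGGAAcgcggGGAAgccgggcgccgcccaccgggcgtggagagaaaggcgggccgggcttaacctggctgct
Tjp1, chr7:65371245-65371494, minus strand: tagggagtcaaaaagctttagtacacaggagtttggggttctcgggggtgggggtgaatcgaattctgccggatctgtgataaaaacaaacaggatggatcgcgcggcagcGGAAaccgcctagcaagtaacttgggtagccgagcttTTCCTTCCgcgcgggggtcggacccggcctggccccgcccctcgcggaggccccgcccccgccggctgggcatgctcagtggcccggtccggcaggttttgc
The Cldn5 window held 0 matches to GGAA, the F11r window 3, which start 138, 71 and 62 bases before the gene, and the Tjp1 window 3, which start 139, 102 and 98 bases before it. Of 32851 windows of this length in the table, 93.4% held the core on either strand. The forkhead motif GTAAACA, in 3.17% of windows, and the Sox motif ACAAT, in 27.7%, were found in neither strand of any window of these 3 genes. The Snail E-box CAGGTG, in 17.2% of windows, had 1 match in F11r, 122 bases before the gene, and 0 in Cldn5 and Tjp1. Among the matched genes whose sequence is not shown, a window of Ocln, which was within 2-fold, held 2 matches, 213 and 68 bases before its start. The windows of Cldn1 and Cldn12 held 0. These counts describe letters in short windows and nothing about binding.

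Factors known to act on Cldn5 transcription split by direction on the same arrays. Erg had a signal of 1.56 on the Smad4-siRNA-labelled array, against 700 on the Control-siRNA array, and was at least 30.7-fold lower. The SoxF factors, which are endothelial, followed it, with Sox18 at 12.1 on the Smad4-siRNA-labelled array, against 529 on the Control-siRNA array (at least 23.2-fold lower), and Sox17 at least 12.7-fold lower. The repressors of the Snail family were higher, with Snai1 at 206 on the Smad4-siRNA-labelled array, against 43.4 on the Control-siRNA array (4.76-fold), and Snai2 3.56-fold higher. Foxo1, a forkhead factor that represses Cldn5, had a log2 ratio of 0.42 (0.08 as deposited), and Ctnnb1, its partner in that repression, of -0.21. In this list of 7 genes, 3 were thus at least 2-fold lower (42.9%, against 15.8% of all genes), 2 higher (28.6%, against 16.0%) and 2 between, with a median of -0.21. Erg is also 1 of the endothelial markers counted above. The part of these factors in the level of Cldn5 was not tested.

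Other genes of the tight junction, listed by role, did not share one direction. Of 45 partner genes on the arrays, 21 were measured, of which 3 were at least 2-fold lower, 6 higher and 12 between (10 of them measured on both arrays), with a median log2 ratio of 0.0025 and against 15.8% lower and 16.0% higher among all genes. Of 17 other claudins, 15 were below the floor on both arrays, which gives no ratio but does not show that they were absent. Cldn15 was the exception in size, with a signal of 15.6 on the Smad4-siRNA-labelled array, against 187 on the Control-siRNA array (at least 8.23-fold lower). Cldn18 had a bound of at least 1.26-fold lower. Cldn15 forms pores in intestinal epithelium and Cldn18 is known from lung and stomach.

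Of 8 other membrane proteins of tight junctions, 3 were measured, and all 3 reached the floor on the Smad4-siRNA-labelled array alone. All 3 were at least 2-fold higher (100%, against 16.0% of all genes). Since only that side reached the floor, their ratios could not be negative in the setting used here. Clmp, which resembles the coxsackievirus and adenovirus receptor, had a signal of 737 on the Smad4-siRNA-labelled array, against 11.4 on the Control-siRNA array (at least 32.4-fold higher). Cxadr, that receptor itself and a relative of the JAM proteins, had 532 on the Smad4-siRNA-labelled array, against 5.09 on the Control-siRNA array (at least 23.4-fold higher). Ildr2, a member of the angulin family, which marks corners where several cells meet, had 489 on the Smad4-siRNA-labelled array, against 8.69 on the Control-siRNA array (at least 21.5-fold higher). Among immunoglobulin-like junction molecules, Esam and Jam2 were thus lower and Cxadr and Clmp higher, with bounds for Esam, Cxadr and Clmp. On the same arrays 9 of the 11 genes that mark fibroblasts were measured. Each of the 9 was higher by 2-fold or more (100%, against 16.0% of all genes). Among them Pdgfra alone was measured on both arrays, and the ratios of the others are bounds that could not be negative. The part of fibroblast genes in the values of these junction molecules was not tested. Marveld2 and Lsr, which belong to the same corners, were below the floor on both arrays.

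Cytoplasmic plaque, scaffold and polarity genes, the group to which Tjp1 belongs, were called in shares close to those of all genes. Of 20 with a probe set, 16 were measured, 2 were at least 2-fold lower (12.5%, against 15.8% of all genes), 3 higher (18.8%, against 16.0%) and 11 between (10 measured on both arrays), with a median of -0.17. Cgnl1 (paracingulin), a protein of the junction plaque, had a signal of 375 on the Smad4-siRNA-labelled array, against 1328 on the Control-siRNA array (3.54-fold lower). Afdn (afadin), which links nectins to actin and binds JAM proteins, was 2.44-fold lower. The polarity gene Pard3, whose protein binds JAM proteins directly, had 243 on the Smad4-siRNA-labelled array, against 82.6 on the Control-siRNA array (2.93-fold higher), its partner Pard6g was at least 14.2-fold higher, and Amot was 2.74-fold higher.

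Among adherens junction genes, whose proteins lie beside tight junctions, 3 of 8 were at least 2-fold lower (37.5%, against 15.8% of all genes) and 0 higher (against 16.0%). Cdh5 (VE-cadherin) had a signal of 44.2 on the Smad4-siRNA-labelled array, against 1501 on the Control-siRNA array (34.0-fold lower). Pecam1 was at least 82.8-fold lower and Ptprb, the phosphatase that binds VE-cadherin, 38.3-fold lower, whereas the other 5, 4 of them catenin genes, lay within 2-fold. The list median was -0.52. Cdh5 and Pecam1 are also endothelial markers, of which 13 of the 14 measured outside the 9 genes were at least 2-fold lower (median -4.82).

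A list of 10 genes on the brain endothelial barrier apart from junctions also held Plvap, which the mature barrier does not use. Of the 10, 8 were measured, with a median of -0.07. Of these 8, 1 was at least 2-fold lower (12.5%, against 15.8% of all genes), 2 higher (25%, against 16.0%) and 5 between (4 measured on both arrays). The 1 lower gene was Plvap, so the lower call was not for a gene that the barrier uses. With 8 genes these counts lie near those shares. Plvap, a protein of fenestrae and caveolae that mature barrier vessels of the brain lack, had a signal of 8.39 on the Smad4-siRNA-labelled array, against 1556 on the Control-siRNA array (at least 68.3-fold lower). The glucose transporter Slc2a1 had 729 on the Smad4-siRNA-labelled array, against 1023 on the Control-siRNA array (log2 ratio -0.49). The efflux pump Abcg2 was 2.18-fold higher (log2 ratio 1.12, but 0.81 as deposited), and Foxf2, a forkhead factor of brain pericytes too, was at least 3.29-fold higher. Mfsd2a, a lipid transporter of the barrier, was below the floor on both arrays.

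**Figure D4:**
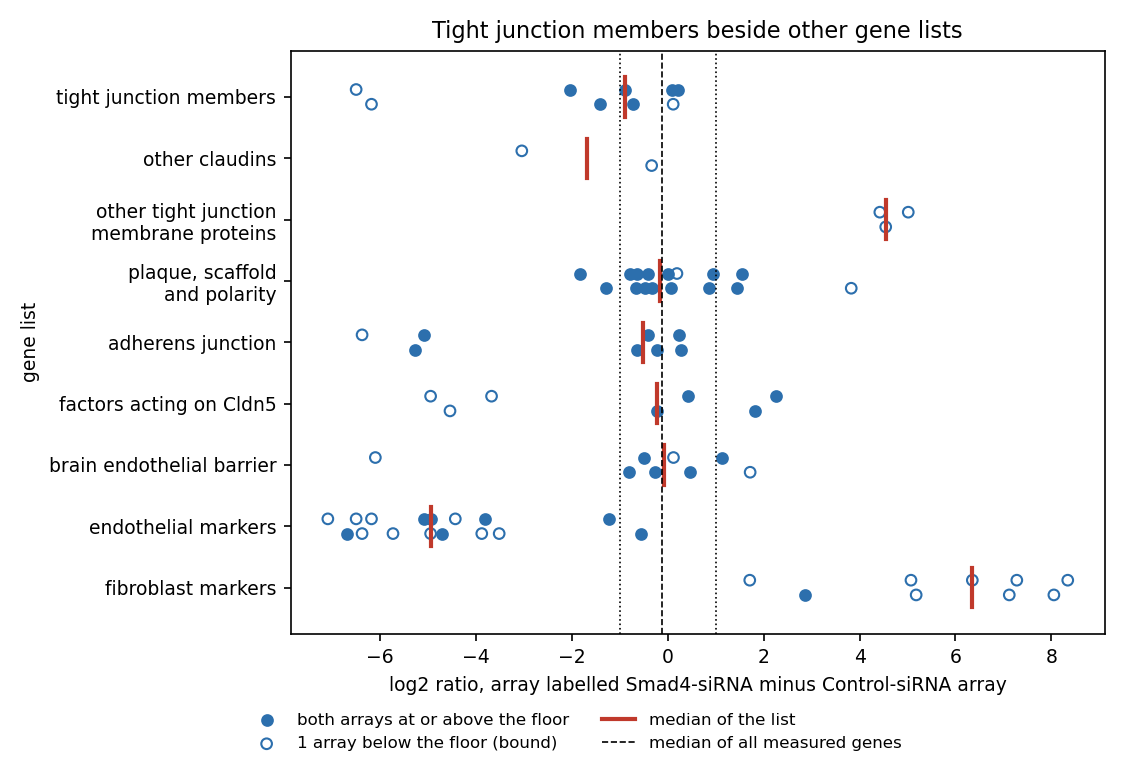
Log2 ratio (Smad4-siRNA-labelled minus Control-siRNA array) of every measured gene in 9 lists, with filled circles for genes that reached the floor on both, open circles for bounds, red bars for list medians and a dashed line for the median of all genes (-0.11). The 9 tight junction genes spread from -6.49 to 0.21 and overlap the endothelial markers (-7.08 to -0.56, a list that holds Cldn5 and Esam too), while the fibroblast markers run from 1.71 to 8.34.

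Endothelial markers and the lower tight junction genes were thus low on the same array, and the part of cell make-up in these differences was not tested. Among markers of other cells, 4 of 5 measured pericyte and smooth muscle genes were at least 2-fold higher (80%, against 16.0% of all genes). Signals summed over all 8 genes of that list were 3005 on the Smad4-siRNA-labelled array and 92.6 on the Control-siRNA array. The sums include signals below the floor, which 4 of the 8 reached on the Smad4-siRNA-labelled array and 2 on the Control-siRNA array. Unlike the 4 higher genes, Des had a signal of 13.7 on the Smad4-siRNA-labelled array, against 36.2 on the Control-siRNA array (at least 1.59-fold lower). Rgs5, Abcc9 and Cnn1 lay below the floor on both arrays and gave no ratio. Of 9 epithelial markers, 2 reached the floor on the Smad4-siRNA-labelled array and 0 on the Control-siRNA array. Of all 18194 genes, 10572 and 10488 did so on these arrays. Epcam had a signal of 81.7 on the Smad4-siRNA-labelled array, against 8.54 on the Control-siRNA array (at least 3.58-fold higher), and Krt19 had 39.3, against 1.51 on the Control-siRNA array (at least 1.73-fold higher). The other 7, among them Cdh1 and Krt8, were below the floor on both arrays. Of 5 leukocyte and microglia markers, 2 were measured, both of them on both arrays. Cd68, a lysosomal protein abundant in macrophages, had a signal of 35.2 on the Smad4-siRNA-labelled array, against 820 on the Control-siRNA array (23.3-fold lower), and Csf1r a log2 ratio of -0.28. The defining gene Ptprc was below the floor on both arrays, as were Aif1 and Itgam.

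The chromosomal neighbours of the 9 genes were called in shares close to those of all genes. For each gene the 3 nearest protein-coding genes on either side that had a probe set were taken from the RefSeq order, 54 in all, of which 35 were measured, 7 at least 2-fold lower (20%, against 15.8% of all genes), 6 higher (17.1%, against 16.0%) and 22 between (16 measured on both arrays). Of 5 measured neighbours of Cldn5 on chromosome 16, 4 were measured on both arrays and lay within 2-fold, with the adjacent Cdc45 at a log2 ratio of -0.28. Gp1bb, on the other side, reached the floor on the Smad4-siRNA-labelled array alone and was higher by at least 1.86-fold, so that its difference may exceed 2-fold. On chromosome 9, Esam lies close to Robo4, an endothelial guidance receptor that had a signal of 13.8 on the Smad4-siRNA-labelled array, against 490 on the Control-siRNA array (at least 21.5-fold lower), and next to Vsig2, at least 3.92-fold lower. Robo3, between Robo4 and Esam, had a bound of at least 1.41-fold lower, and Msantd2, next to Esam, a log2 ratio of 0.46. Around Cldn12 on chromosome 5, where 5 neighbours were measured, 4 were at least 2-fold higher, among them the Wnt receptor Fzd1 (at least 62.1-fold) and Steap2 (5.71-fold), and Gtpbp10 was 3.10-fold lower. The nearest neighbours of Jam2 on chromosome 16, Mrpl39 and Atp5j, had log2 ratios of -0.99 and -0.26, against -2.04 for Jam2.

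**Figure D5:**
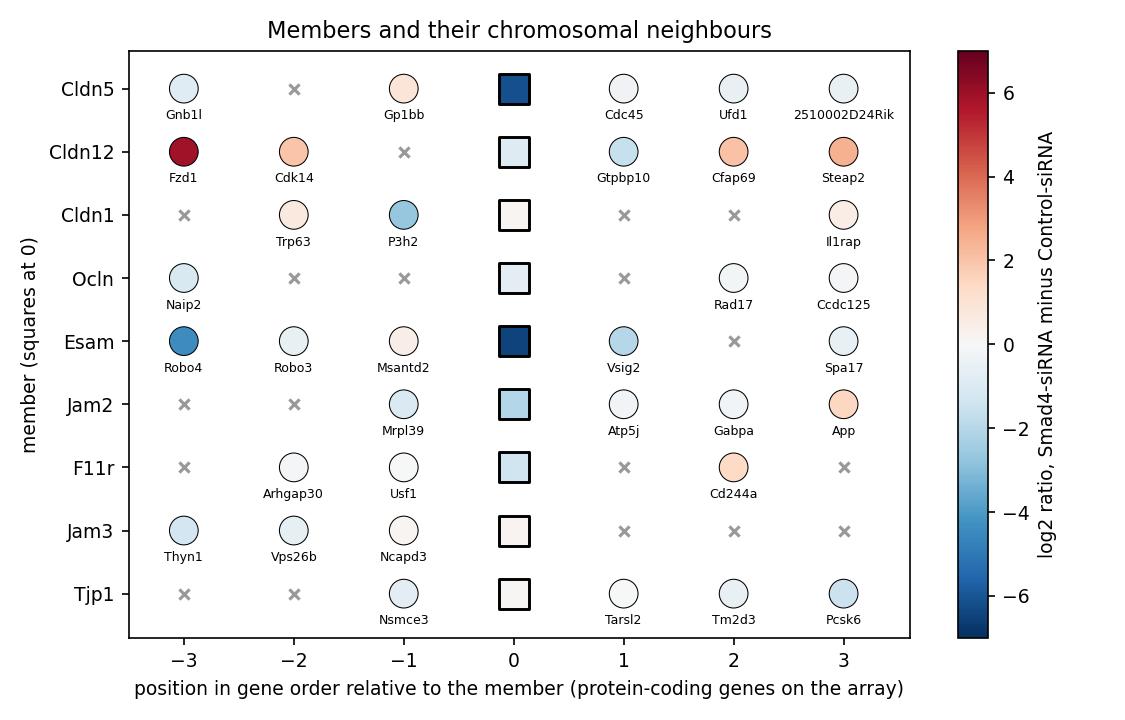
Log2 ratio (Smad4-siRNA-labelled minus Control-siRNA array, colour) of the 9 genes (squares) and of the 3 protein-coding genes on either side (circles), in gene order, with crosses for genes below the floor on both arrays. Cldn5 (-6.17) stands among pale neighbours, Esam (-6.49) has Robo4 (-4.43) and Vsig2 (-1.97) nearby, and most measured neighbours of Cldn12 are higher.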

How the data were processed

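Total RNA of both groups was labelled with biotin as cRNA, per the labels' protocols. Per the submitters' processing notes, the deposited signal intensities, which are linear, came from MAS5. Which version and scaling target were used, and any detection calls, is not given in the sources used here. The table held 45101 probe sets, of which 64 controls were left out. The platform annotation gave 1 gene to 34945 probe sets, several to 932 (not named) and none to 9160, with symbols updated by Entrez identifier to RefSeq (GRCm38.p6, 18032 of 18194 genes matched).

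From these, log2 signals were quantile normalized and the floor set at the median. A gene was represented by the probe set of highest mean log2 signal, a fold of 2 was called, and ratios run Smad4-siRNA-labelled minus Control-siRNA. Groups came from the sample titles. Python 3.11.15 with numpy 2.4.6, pandas 2.3.3 and statsmodels 0.14.6 was used. The code for the calls was run on simulated data with less noise than the pooled SD. The changed genes there lay well above the floor, so calls near the floor were not tested. The 8 alternatives were the values as deposited, centring, lowess (fraction 0.3), floors at the 25th and 75th percentiles, a pseudocount, the median over probe sets and leaving out suffixed probe sets. The 9 genes and all lists were chosen with earlier results of these data known. Named genes are the 9, Smad4, Cdh5 and the genes of each partner list past 2-fold, at most 5 each way. Mpp5 stands for Pals1. Chosen after values were seen were the sex-linked genes, chromosomal neighbours, and Cldn18, Marveld2, Lsr, Foxo1, Ctnnb1, Slc2a1, Mfsd2a, Eng, and the markers of other cell types.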

Additional observations from a re-analysis of the deposited data

How the results depend on the processing

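The count of 4 genes at least 2-fold lower ran from 4 to 5 over the 8 alternatives, and Cldn5, Esam, Jam2 and F11r were among them in each. For Cldn5 and Esam, below the floor on 1 side, the ratio could not be positive in settings with a floor. Their downward direction there was fixed in advance and is no support, whereas its size was free. With the pseudocount the sign was free too, and the log2 ratios were -7.90 for Cldn5 and -7.89 for Esam. Cldn12 was the added gene where the count was 5. The count of higher genes, 0 in the setting used, was 1 (Cldn1) when the 25th percentile was the floor and 1 when it was added as a pseudocount. The median log2 ratio of the 9 genes was -1.41 with a floor at the 75th percentile, where Cldn1 and Ocln gave no value, and otherwise moved by less than the SD of 0.47 between probe sets. Partner genes at least 2-fold lower numbered 3 in the setting used, 5 when the floor was the 25th percentile and 6 when it was the pseudocount. Over all genes, 1826 were lower and 1849 higher, against 901 and 947 when the floor was the 75th percentile, and 2752 were lower when it was the 25th. The cause was not tested beyond the floor itself, which sets how many genes count as measured. The bound for Cldn5 was a log2 ratio of at most -8.20 with the lower floor and -3.69 with the higher, and that for Esam -8.52 and -4.01. The median of all measured genes, -0.11 in the setting used, was -0.23 as deposited and 0.0044 after lowess, and the small ratios of Tjp1 and Jam3 changed sign as deposited. Signals below the floor carry no order, which limits Cldn1, Ocln, Cldn5 and Esam. No paired analysis was possible because each group had 1 array.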
